A study of Mus musculus with 6 samples.

Results

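A single intron of Sfmbt2 holds one of the largest groups of related miRNA hairpins in the mouse genome, and it was followed here in the small RNA of exosomes released by HN9.10e cells, an embryonic mouse hippocampal line. Exosomes were collected from untreated cells (control, 3 libraries) and from cells given 100 nM ceramide (ceramide, 3 libraries), both at 48 h. All cells were of the same line, and the labels name no other agent or genetic change. Neither the labels nor the study's methods say whether the control cells were given the solvent of the ceramide. The cluster was taken as every row of the count table whose Ensembl identifier is a GENCODE M21 miRNA gene that starts within Sfmbt2 (GRCm38, chr2:10370510-10595253). This rule found 107 of the 1973 rows, of which 99 had at least 1 read and 31 had enough reads for a test. A further 12 annotated hairpins of the intron had no row and were not analysed here.

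MicroRNAs are cut from hairpin transcripts by Drosha and Dicer, and the short mature strand guides Argonaute to messenger RNAs through its seed, the bases near its 5′ end. Sfmbt2 encodes a Polycomb group protein and is an imprinted gene expressed from the paternal allele, best known for its part in the trophoblast. Its intronic cluster is particular to rodents, where it grew by repeated local duplication into the miR-297, miR-466, miR-467 and miR-669 families, and loss of the cluster in mice impairs growth of the placenta. Among its members, miR-669a is known to hold heart progenitors back from a skeletal muscle fate, miR-466h to promote apoptosis in cultured cells and miR-467 to lower translation of thrombospondin-1.

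Library totals ran from 800810 to 2760015 counts. A level is given below in CPM, the count scaled to 1000000 counts of the library's total after TMM scaling (shares in % are of the unscaled total), and 3 counts were worth between 1.14 and 3.89 CPM, depending on the library. The deepest library held 3.45 times the counts of the shallowest. Brain-enriched miRNAs were present in every library, with Mir128-1 at 461 to 705 CPM, Mir9-2 at 63.6 to 78.3 CPM and Mir138-2 at 2525 to 3587 CPM. Replicate 1 of both groups carried the label lane 1, whereas control replicates 2 and 3 were labelled lane 4 and ceramide replicates 2 and 3 lane 2. Lanes 4 and 2 thus held 1 group each, and within lane 1 there was 1 library a group. Both lane 1 libraries carry the same sample number in their labels, as does ceramide replicate 2 of lane 2. The labels do not say whether the lane 1 libraries shared a run. The study describes independent experiments, but the labels do not say that each library came from its own culture, so p-values measure the spread between these libraries. Levels are relative to the other miRNAs of the exosomes, and fewer vesicles carrying a miRNA cannot be told apart from fewer copies in each.

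The hairpins of the cluster are recognised by repeats of UG on one arm and of AC on the other. Relatives of the same families that lie outside Sfmbt2 show both kinds of strand. Of the 8 mature sequences found for them, 4 were mostly G and U and 4 mostly A and C. The mature sequences of 3 relatives that had reads, all of the first kind, and of miR-466i-3p as an example of the second are given from RefSeq (GRCm38.p6), 5′ to 3′, with the seed (bases 2 to 8) in capitals.
mmu-miR-466k: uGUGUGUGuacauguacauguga
mmu-miR-466j: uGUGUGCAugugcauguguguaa
mmu-miR-467h: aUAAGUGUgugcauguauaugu
mmu-miR-466i-3p: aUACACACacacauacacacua
The first lies at chr3:85467396-85467418 on the plus strand, antisense to an intron of Gm37240. The second lies at chr10:60960802-60960824 and the third at chr9:115381898-115381919, both on the plus strand and outside any other annotated gene. The fourth lies at chr13:17747552-17747573 on the plus strand, and its row had no reads. G and U made up 69.6% of the bases of miR-466k, 73.9% of miR-466j and 68.2% of miR-467h, while A and C made up 86.4% of those of miR-466i-3p. The hairpin of miR-466k shared a stretch of 18 bases with 26 hairpins of the cluster, that of miR-466j with 13 and that of miR-467h with 4. Reads of the cluster can thus match hairpins outside it as well.

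All 119 annotated hairpins of the cluster lie on the plus strand, the strand of Sfmbt2, in a single intron (chr2:10461473-10523944) that is intron 10 or intron 11 of the gene, depending on the transcript, and none overlaps an exon of the gene. They span 53.0 kb without another annotated gene between them. The median hairpin was 98 bases long (73 to 127) with 37.3% G and C, against 51.7% for the 2083 other annotated miRNA genes. UG, GU, CA and AC dinucleotides covered 68.7% of the bases of a median member, against 45.3% elsewhere. Of the 119 hairpins, 117 shared a stretch of 18 bases with another member.

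**Figure D1:**
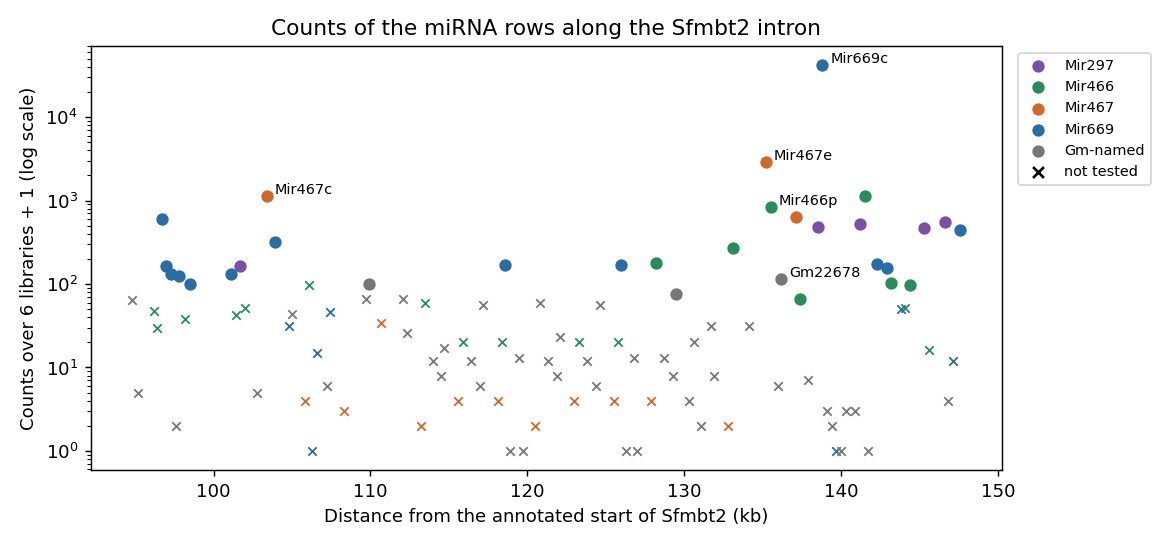
Total counts over the 6 libraries plus 1 (log axis) of the cluster rows against the distance of each hairpin from the start of Sfmbt2 in kb, coloured by family, with dots for tested rows and crosses for the others. Mir669c stands alone at 41728 counts, and rows of few counts fill the middle of the cluster.

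Rows whose sequence recurs almost whole in other members had few counts. The 20 rows in which under 50% of the 18-base stretches recurred in another member had a median of 29 counts over the 6 libraries, and the highest reached 41728. The 42 rows with 50% to under 90% had a median of 65.5 counts, and 21 of them were tested. The 45 rows with 90% or more had a median of 7 counts, none above 169, and only 2 were tested. Over the 107 rows, Spearman's rho between this share and the counts was -0.33, a description across hairpins that share sequence. The authors counted with STAR's GeneCounts mode, which by default leaves out reads with several matches. The hairpins of Mir669p-1 and Mir669p-2 are identical in sequence, yet each row held 169 counts. Mir669a-1 and Gm26092, also identical in sequence, had none. How reads with several matches were handled is not given in the sources used here and was not tested. For the most repeated copies a low count thus need not mean a low level. The 10 copies of Mir467a had 1 to 3 counts each, for example, although Mir467c, Mir467d and Mir467e of the same family were among the highest rows of the cluster.

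**Figure D2:**
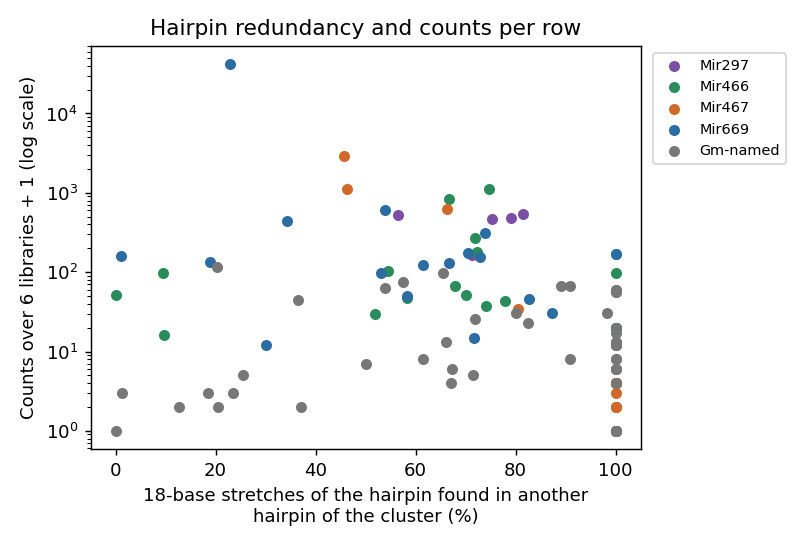
Total counts of each cluster row over the 6 libraries plus 1 (log axis) against the percent of its 18-base stretches that recur in another hairpin of the cluster. Each dot is a row coloured by family, and the rows at 90% or above do not exceed 169 counts.

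Some rows held the same number of reads in every library. Mir669p-1 and Mir669p-2 were identical at 169 counts in all, Gm24315 and Gm24761 at 66, Mir466c-2 and Gm25285 at 58, and Mir466b-4 to Mir466b-7 with Gm25943 at 19. In all 12 such groups were found, and a group of matching hairpins is best read as 1 measurement. The group with the fewest reads, 1 per row, also held Gm23578 and Gm23988, whose hairpins differ. In sums, near-identical rows (within 5% of each other in each library) were therefore entered once, which left 74 of the 99 rows with reads. Gm22091 had exactly 1 count in each of the 6 libraries, as had the outside rows Mir466j and Mir297-1, a constant value that did not follow the 3.45-fold range of depth.

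Together the cluster made up 0.495, 0.507 and 0.493% of all counts in control replicates 1, 2 and 3 and 0.653, 0.640 and 0.587% in ceramide replicates 1, 2 and 3. Every ceramide library was above every control library. The means were 0.499% ± 0.00777 and 0.627% ± 0.0349 (SD, n = 3 each), and the 95% Wilson interval of a single library was at most 0.0176 percentage points to either side, which covers counting error only. Since its members were chosen with earlier results of these data known, no test was made of this sum. Most of it came from a single row, Mir669c, which gave 72.6% ± 0.486 of the cluster's counts in control and 77.0% ± 1.28 in ceramide. Without Mir669c the cluster stood at 0.136, 0.136 and 0.137% of all counts in control and 0.157, 0.138 and 0.138% in ceramide, where replicate 1 was apart from the other two.

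The families differed widely in level. The miR-669 rows made up 0.392% ± 0.00834 of all counts in control and 0.509% ± 0.0308 in ceramide, but without Mir669c these values were 0.0300% ± 0.000449 and 0.0267% ± 0.00307. The miR-467 rows followed at 0.0472% ± 0.00214 and 0.0539% ± 0.0110. The miR-466 rows stood at 0.0281% ± 0.00279 and 0.0334% ± 0.00415, a level close to that of the 5 miR-297 rows at 0.0250% ± 0.000728 and 0.0214% ± 0.000397. The 48 hairpins known only by a Gm number had the smallest sum, 0.00611% ± 0.00120 and 0.00904% ± 0.00101. The groups did not overlap for miR-669, miR-297 and the Gm rows, and they overlapped for miR-466 and miR-467. A small RNA read covers a whole mature miRNA, so counts were not divided by hairpin length.

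**Figure D3:**
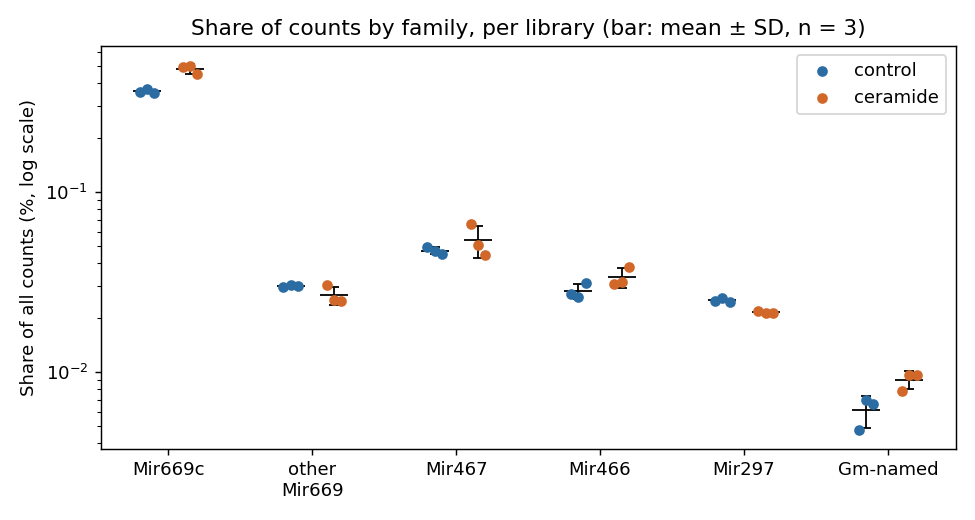
Percent of all counts of a library (log axis) held by Mir669c and by each family of the cluster, with one point per library, coloured by group, a bar at the mean and error lines of 1 SD (n = 3). Mir669c, drawn apart from the other miR-669 rows, has a mean of 0.362% in control and 0.482% in ceramide without overlap.

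Ceramide was compared with control in a fit over the 418 rows with enough reads, and a row was called where the adjusted p of edgeR's quasi-likelihood test was at most 0.05 and the log2 fold change at least 0.6 in size. Of the 31 cluster rows, 1 was called (3.23%), against 48 of all 418 rows (11.5%). The called row, Gm22678, rose, where 3.11% of all rows were called higher. By the adjusted p alone 2 cluster rows passed, Gm22678 and Mir669c, against 19.9% of all rows. The log2 fold change was above 0 for 17 cluster rows and below 0 for 14, where it was above 0 for 49.3% of all rows, with a median of 0.00, and over all rows the median was -0.01. Of the cluster rows 6 had groups that did not overlap, against 39.2% of all rows. The replicate number was also used as a block, which pairs each ceramide library with the control library of the same number. No label states this pairing, which was read from the same counts. With the block 6 cluster rows were called (19.4%), against 20.8% of all rows. These were Gm22678, Gm25451, Mir466b-2, Mir466b-3 and Mir466p, which rose, and Mir669e, which fell, where 9.09% of all rows were called higher and 11.7% lower. By the adjusted p alone 8 cluster rows passed with the block, against 45.2% of all rows. An unadjusted p under 0.05 was found for 7 of the 31 rows without the block, against 36.6% of all rows. limma-voom called 1 cluster row, Gm22678, where it called 11.7% of all rows. DESeq2 called none, where it called 9% of its rows, and it gave 4 of 99 cluster rows an unadjusted p under 0.05. With lane as a term edgeR also called none, against 6.94% of all rows, and 3 of the 31 cluster rows had such a p. In neither fit, with or without the block, was the called share of the cluster above that of the table.

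**Figure D4:**
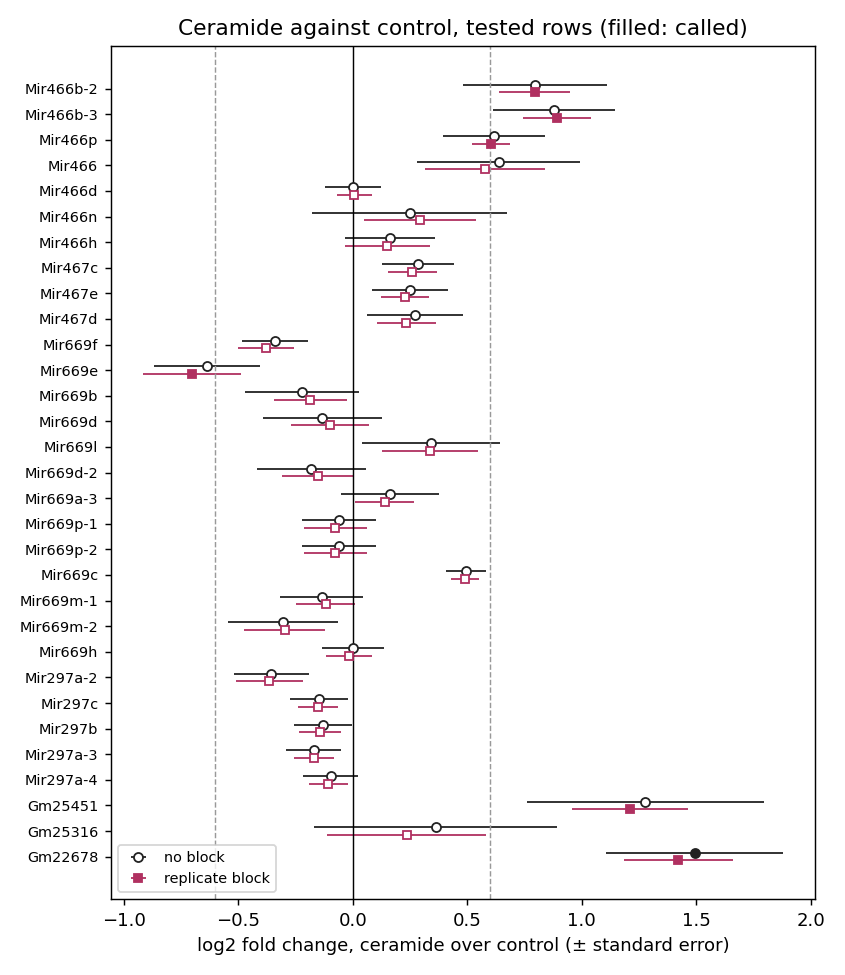
Log2 fold change of ceramide over control with its standard error for the 31 tested cluster rows, without (circles) and with (squares) the replicate block, where filled symbols are called. Dashed lines mark 0.6 in either direction, and most rows lie between them.

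Mir669c (chr2:10509296-10509404, ENSMUSG00000076118) gave most of the cluster's reads in each library. It stood at 3486, 3672 and 3415 CPM in control and at 5161, 5244 and 4489 CPM in ceramide. All 3 ceramide libraries were above all 3 control libraries. The means were 3525 ± 133 and 4965 ± 414 CPM (SD, n = 3 each), and the log2 fold change of 0.49 (SE 0.09, adjusted p = 0.00875) passed the limit on edgeR's adjusted p but not the size of 0.6. It kept its sign with a log2 fold change of 0.41 to 0.58 in the 16 other fits, without reaching 0.6 in any. Its adjusted p in those fits ran from 0.00216 to 0.118, the last with lane as a term, where the value rests on the pair of lane 1. In the order of mean level in the table of 1973 rows, Mir669c was at place 54 in control and 39 in ceramide, while the next cluster row, Mir467e, was at 165 and 156.

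Gm22678 (chr2:10506755-10506855, ENSMUSG00000080624), a hairpin without a family name, had the highest log2 fold change of the 31 tested cluster rows. It had 2, 11 and 8 reads in control and 8, 44 and 41 in ceramide, which were 1.99, 7.81 and 5.85 CPM and 10.4, 16.6 and 17.4 CPM. The groups did not overlap, although control replicate 1 rested on 2 reads. The means were 5.22 ± 2.96 and 14.8 ± 3.86 CPM, each over 3 libraries with its SD, and edgeR gave a log2 fold change of 1.49 (SE 0.39, adjusted p = 0.0407). With the replicate block the log2 fold change was 1.42 (adjusted p = 0.00594). The call was kept in 9 of 16 other fits. It was lost with DESeq2 (1.52, adjusted p = 0.105), without a filter on low counts (1.48, 0.0598) and with lane as a term (2.34, 0.126). Leaving out control replicate 1 also ended it (1.19, 0.0827), as did leaving out control replicate 3 (1.56, 0.100), ceramide replicate 2 (1.47, 0.132) or ceramide replicate 3 (1.39, 0.0864). The log2 fold change was above 1 in each of these fits.

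Gm25451 (chr2:10480365-10480485) was next in size. It stood at 2.99, 9.23 and 2.92 CPM in control and 6.49, 17.8 and 11.1 CPM in ceramide, and control replicate 2 was above ceramide replicate 1. The means were 5.05 ± 3.62 and 11.8 ± 5.68 CPM, and the log2 fold change of 1.28 (SE 0.52, adjusted p = 0.126) did not pass. With the block, in which every pair was higher in ceramide, the log2 fold change was 1.21 and passed (adjusted p = 0.0119). The last tested Gm row, Gm25316, stood at 1.99, 11.4 and 5.12 CPM in control and 3.89, 8.70 and 10.2 CPM in ceramide. Its groups overlapped, and the log2 fold change of 0.36 (SE 0.53) was below its own error.

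The 7 tested miR-466 rows had log2 fold changes of 0.00 to 0.88 with a median of 0.62, all above 0, but with library size alone as the scaling Mir466d turned to -0.08. None was called without the block, where 3 of the 7 had an unadjusted p under 0.05 by edgeR, against 36.6% of all rows. DESeq2 called none. Mir466b-3 (chr2:10503565-10503645) stood at 16.9, 13.5 and 23.4 CPM in control and 24.7, 31.4 and 40.8 CPM in ceramide, with groups that did not overlap. Its means were 17.9 ± 5.02 and 32.3 ± 8.12 CPM, with a log2 fold change of 0.88 (SE 0.27, adjusted p = 0.0596). It passed with DESeq2's size factors (0.96, adjusted p = 0.0411), with upper-quartile factors (0.96, 0.0347) and with the block (0.89, 0.00577). It also passed when control replicate 3 (1.16, 0.0458) or ceramide replicate 1 (1.00, 0.0437) was left out.

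Mir466b-2 stood at 11.0, 9.94 and 16.1 CPM in control and 14.3, 18.9 and 28.9 CPM in ceramide. Mir466p stood at 49.8, 61.1 and 81.1 CPM in control and 80.5, 94.2 and 119 CPM in ceramide. In both, each ceramide library was above the control library of its number, although the groups overlapped and replicate 3 was the highest of each group. Without the block the log2 fold changes were 0.80 (SE 0.32, adjusted p = 0.119) and 0.62 (SE 0.22, adjusted p = 0.0946) by edgeR. With it they were 0.79 (adjusted p = 0.00966) and 0.61 (adjusted p = 0.00295), and both passed. Mir466b-2, Mir466b-3 and Mir466p are not independent, as their hairpins shared 22 to 30 stretches of 18 bases with each other.

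The 4 other miR-466 rows passed in neither fit. Mir466 stood at 2.99, 4.26 and 7.31 CPM in control and 5.19, 7.95 and 8.93 CPM in ceramide, and its groups overlapped. Mir466n stood at 11.96, 4.26 and 13.9 CPM in control and 14.3, 8.70 and 13.6 CPM in ceramide, where control replicate 2 was the lowest library. Mir466h stood at 8.97, 10.7 and 8.77 CPM in control and 11.7, 11.0 and 9.78 CPM in ceramide, values that overlapped between the groups. Mir466d, the family's highest row, was nearly level, with 131, 116 and 110.4 CPM in control and 131, 115 and 113 CPM in ceramide, with a log2 fold change of 0.00 (SE 0.12).

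The 3 tested miR-467 rows were all higher in ceramide in each pair of libraries and under each of the 4 scalings, yet none was called in any fit. None had an unadjusted p under 0.05 by edgeR with TMM scaling or by DESeq2, while 1 had one with lane as a term and 2 without ceramide replicate 3. Mir467e stood at 303, 288 and 269 CPM in control and 423, 329 and 275 CPM in ceramide. Mir467c stood at 109.7, 111 and 103 CPM in control and 161, 126 and 111 CPM in ceramide. Mir467d stood at 63.8, 64.6 and 54.8 CPM in control and 98.7, 68.1 and 59.1 CPM in ceramide. In all 3 rows ceramide replicate 1 was the highest library, well above ceramide replicates 2 and 3. The log2 fold changes were 0.25 (SE 0.17) for Mir467e, 0.28 (SE 0.16) for Mir467c and 0.27 (SE 0.21) for Mir467d. Within lane 1 they were 0.48, 0.55 and 0.63. With the block the adjusted p was 0.101 at the lowest, for Mir467c.

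**Figure D5:**
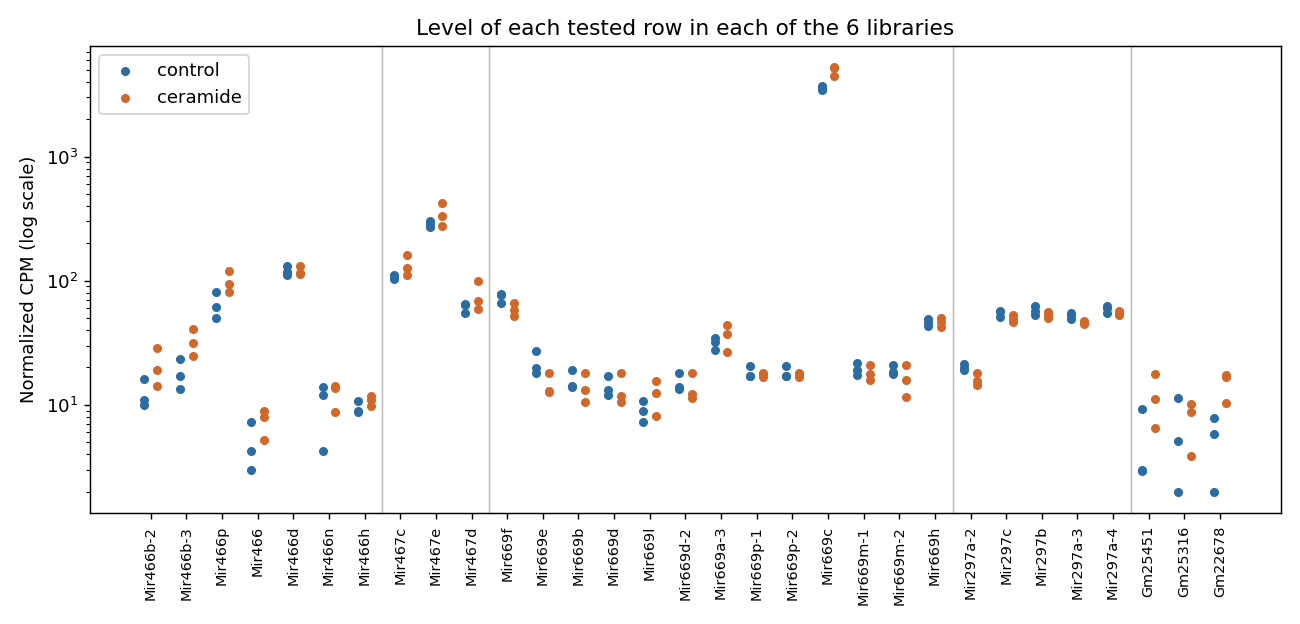
TMM-scaled CPM (log axis) of the 31 tested cluster rows in each of the 6 libraries, grouped by family, with control and ceramide in different colours. Mir669c lies above all other rows, and for most rows the points of the groups overlap.

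Of the 13 tested miR-669 rows, 4 had a log2 fold change above 0 and 9 below 0, with a median of -0.13, and Mir669h, Mir669p-1 and Mir669p-2 changed sign with the scaling. None was called without the block, where 2 of the 13 had an unadjusted p under 0.05 by edgeR, against 36.6% of all rows. DESeq2 called none. At the 5′ end of the cluster, Mir669f and Mir669e had lower means in ceramide, the opposite direction to Mir669c. Mir669e stood at 17.9, 27.0 and 19.7 CPM in control and 18.2, 12.9 and 12.8 CPM in ceramide. Its replicate 1 was level between the groups and replicates 2 and 3 were lower in ceramide, and the log2 fold change was -0.64 (SE 0.23, adjusted p = 0.0983) by edgeR. With the block it passed at -0.70 (adjusted p = 0.0395), while within lane 1 it was 0.02. Mir669f stood at 65.8, 77.4 and 76.8 CPM in control and 66.2, 57.9 and 51.9 CPM in ceramide. It had the same pattern, with a log2 fold change of -0.34 (SE 0.14, adjusted p = 0.135) and of -0.38 with the block (adjusted p = 0.0474), which is below 0.6 in size.

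Mir669a-3, the tested copy of miR-669a, was at 31.9, 34.8 and 27.8 CPM in control and 44.1, 37.5 and 26.8 CPM in ceramide. Mir669l stood at 8.97, 10.7 and 7.31 CPM in control and 15.6, 12.5 and 8.08 CPM in ceramide. In both, ceramide replicate 1 was the highest library, and the log2 fold changes of 0.16 (SE 0.21) and 0.34 (SE 0.30) were not called. Mir669h, the hairpin nearest to the 3′ end of the cluster, had 42.9, 46.9 and 49.0 CPM in control and 46.7, 42.4 and 50.2 CPM in ceramide, a log2 fold change of 0.00 (SE 0.14). The identical rows Mir669p-1 and Mir669p-2 were both at 16.9, 17.0 and 20.5 CPM in control and 18.2, 16.6 and 17.9 CPM in ceramide, a log2 fold change of -0.06 (SE 0.16). The level of all these rows overlapped between the groups.

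The 5 other tested miR-669 rows lay below 0 with log2 fold changes of -0.31 to -0.13, each within 1.5 times its standard error. Mir669b stood at 18.9, 14.2 and 13.9 CPM in control and 18.2, 13.2 and 10.6 CPM in ceramide. Mir669d stood at 16.9, 12.1 and 13.2 CPM in control and 18.2, 11.7 and 10.6 CPM in ceramide. Mir669d-2 stood at 17.9, 13.5 and 13.9 CPM in control and 18.2, 11.4 and 12.3 CPM in ceramide. These 3 hairpins lie within the first part of the cluster, and in each the lowest library was ceramide replicate 2 or 3. Mir669m-1 stood at 21.9, 19.2 and 17.5 CPM in control and 20.8, 17.8 and 15.7 CPM in ceramide. Mir669m-2 stood at 20.9, 17.8 and 18.3 CPM in control and 20.8, 15.9 and 11.5 CPM in ceramide. Here too the groups overlapped.

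The 5 miR-297 rows were all lower in ceramide, in each pair of libraries and under each of the 4 scalings, with log2 fold changes of -0.36 to -0.10 and a median of -0.15. None was called in any fit. None had an unadjusted p under 0.05 by edgeR with TMM scaling or by DESeq2, and 1 had one with library size alone and 1 by limma-voom. Mir297a-2 stood at 19.9, 19.2 and 21.2 CPM in control and 18.2, 15.5 and 14.5 CPM in ceramide. Mir297a-3 stood at 52.8, 54.7 and 49.0 CPM in control and 46.7, 47.7 and 44.7 CPM in ceramide. In these rows the groups did not overlap, and the log2 fold changes were -0.36 (SE 0.16, adjusted p = 0.205) and -0.17 (SE 0.12, adjusted p = 0.345). Mir297a-4 stood at 54.8, 62.5 and 59.9 CPM in control and 53.2, 56.8 and 55.7 CPM in ceramide. Mir297b stood at 56.8, 62.5 and 53.4 CPM in control and 55.8, 53.0 and 49.8 CPM in ceramide. Mir297c stood at 55.8, 56.8 and 51.2 CPM in control and 53.2, 49.2 and 46.4 CPM in ceramide. In the last 3 the groups overlapped, and each log2 fold change was under 1.5 times its SE. As the family is small and its copies are alike, these rows are not 5 independent measurements.

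The remaining 76 rows had too few reads for a test, and 56 of the 107 rows held under 30 counts in all, 8 of them none. The untested row with the most reads was Mir466b-8, with 2, 10 and 9 reads in control and 3, 36 and 37 in ceramide. Replicate 1 of either group rested on 2 or 3 reads, and relative to depth the groups overlapped. The identical rows Gm24315 and Gm24761 had 7, 9 and 10 reads in control and 7, 19 and 14 in ceramide. Gm22072 had 7, 9 and 5 reads in control and 5, 20 and 17 in ceramide, and the identical rows Mir466c-2 and Gm25285 3, 7 and 10 reads in control and 7, 16 and 15 in ceramide. These rows too overlapped between the groups once depth was taken into account.

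Outside Sfmbt2 the table had 10 rows of the same families, 5 of them with reads and none with enough for a test. Mir466k was at 7, 7 and 7 reads in control and 4, 7 and 8 in ceramide, and Mir466j at 1 read in every library. Among other large miRNA clusters, the imprinted Dlk1-Dio3 domain on chromosome 12 had 58 rows and 26 tested, and made up 0.0768% ± 0.000415 of all counts in control and 0.0692% ± 0.00426 in ceramide. With every row summed in both, the Sfmbt2 cluster held 6.56 times as many counts in control and 9.15 times as many in ceramide. Most of these were from Mir669c, and without it, copies entered once, the cluster stood at 0.136% in control and 0.144% in ceramide. The 20 Mir344 rows of chromosome 7 held 0.456% ± 0.0241 and 0.283% ± 0.0240, against 0.504% and 0.633% for the Sfmbt2 cluster, every row summed. In Dlk1-Dio3, 1 of 26 tested rows was called, a lower one, where 8.37% of all rows were called lower, and with the block 2 were called, 1 higher and 1 lower. Of the Mir344 rows of chromosome 7, 6 of 10 tested were called lower, with a median log2 fold change of -0.76. Near-identical rows were not merged here, and the study lists several Mir344-related rows with nearly equal fold changes. The 6 calls need not be separate measurements. Whether the clusters responded differently was not tested.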

How the data were processed

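Exosomal small RNA of control and ceramide-treated HN9.10e cells was sequenced from libraries made with a kit that adds molecular identifiers. The authors trimmed the reads with Cutadapt 1.15, aligned them to GRCm38 with STAR 2.5.3a in its GeneCounts mode and deposited raw counts per GENCODE miRNA gene, in which both arms of a hairpin share a row. The GENCODE release and the handling of strand, of several matches and of the identifiers are not given in the sources used here. Of 1973 rows, 1894 matched GENCODE M21.

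The counts were tested with edgeR 4.0.16 (R 4.3.3; TMM, filterByExpr, quasi-likelihood test, condition as the only term, Benjamini-Hochberg over 418 rows). DESeq2 1.42.0, limma-voom (limma 3.58.1), other scalings and filters, the replicate block, the lane, merged rows and leaving out each library were alternatives. SE is the log2 fold change over the root of F. Same-numbered libraries deviated together from their group means (r = 0.58, 0.42 and 0.75), so the numbers were taken as pairs. The members, lists and tests were chosen with earlier results of these data known. Every tested row, the untested rows with the most counts (5, and a row tied with the last) and Gm22678 were named, and the 3 with the largest fold change got full statistics. On simulated counts 183 of 200 changed rows (91.5%) and 1 unchanged row were called. What share of rows would be called at fold changes as small as those of most cluster rows was not tested.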

Additional observations from a re-analysis of the deposited data

How the results depend on the processing

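The number of called cluster rows was 1 of 31 in the edgeR test, against 48 of all 418 rows. It was 2 with DESeq2's size factors (47 of all 418 rows) and 2 with upper-quartile factors (51 of all 418 rows). With the adjusted p alone it was also 2, against 19.9% of all rows. It was 0 with DESeq2, against 9% of its rows, and 4 of 99 cluster rows had an unadjusted p under 0.05 by DESeq2. Without a filter on low counts it was 0, against 35 of 1058 rows, and 11 of 99 cluster rows were under 0.05 by edgeR. With lane as a term it was 0, against 29 of 418 rows, and 3 of 31 cluster rows were under 0.05 by edgeR. With the replicate block it was 6, of which 5 were higher and 1 lower in ceramide, against 87 of 418 rows, 38 higher and 49 lower. Without 1 library it ran from 0 to 2, all of them higher, where 29 to 53 of all 418 rows were called. It was 0 without control replicate 1, ceramide replicate 2 or ceramide replicate 3 and 2 without ceramide replicate 1. With the block the called Dlk1-Dio3 rows went from 1 to 2 and the called Mir344 rows were 6 in both fits. Copies defined by a stretch of 18 bases left only 3 rows, at 0.363% in control and 0.483% in ceramide. Of this, Mir669c alone gave 0.362% and 0.482%. Relative to the TMM-scaled size the cluster share was 0.485% in control and 0.645% in ceramide, where it was 0.499% and 0.627% of the unscaled total. Without 1 library the share of the unscaled total ran from 0.494% to 0.501% in control and from 0.614% to 0.647% in ceramide. The Gm rows reached 0.00801% and 0.0114% with every row summed.

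Gm22678, the row called without the block, kept its sign in every setting. Of the 31 tested rows, 10 changed sign in some setting, the largest of them at 0.64 in size in the main fit. With DESeq2's size factors the log2 fold change of Mir669p-1 and Mir669p-2 was 0.02, and with upper-quartile factors 0.01. With library size alone it was -0.07 for Mir669h and -0.08 for Mir466d. With limma-voom it was -0.01 and -0.001, without a filter -0.02 and -0.02, with at least 10 counts in 3 libraries -0.01 and -0.01, and with near-identical rows merged -0.01 and -0.01 for the same rows. With the replicate block Mir669h was at -0.02. With lane as a term Mir669p-1, Mir669p-2 and Mir669d were at 0.1, Mir669e, which the block called at -0.70, and Mir669d-2 at 0.02 and Mir669f at 0.01. Without 1 library the ranges were Mir669p-1 -0.09 to 0.06, Mir669p-2 -0.09 to 0.06, Mir297a-4 -0.13 to 0.004, Mir669h -0.07 to 0.12, Mir669d-2 -0.33 to 0.01, Mir466n -0.08 to 0.64, Mir466d -0.06 to 0.08 and Mir669d -0.31 to 0.03. The causes were not tested. What change the rows under 30 counts could show at this depth was not tested.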
